A study of Mus musculus with 6 samples.

Results

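A set of 36 genes of autophagy and mitophagy were followed in mouse heart mRNA on 2 diets. They are a list named by symbol, chosen by their known function. No measured value entered the rule, but earlier results of these data were known when the list was chosen. All 36 were found among the 23808 genes of the deposited table. The list holds 6 genes of initiation, 5 of membrane supply and phagophore growth, 10 of the conjugation machinery, 5 encoding ATG8 proteins, 3 cargo receptors, 4 mitophagy genes and 3 lysosomal genes. Values are FPKM, read fragments for each kilobase of a gene, normalised for the fragments in that library, so levels of different genes can be set side by side per length. The gene lengths used are not given, and comparisons of level between genes depend on them. Genes entered the test when their mean over the 6 libraries reached 1 FPKM, which 11456 genes and 35 of the 36 members did. The member under it was Atg4c, which encodes a protease of ATG8 proteins, at 1.35, 0.749 and 0.739 FPKM on normal chow and 0.984, 0.696 and 1.37 FPKM on high-fat diet.

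The hearts came from female wild-type (WT) mice. One group received normal chow (NC) and the other a high-fat diet (HFD), each between week 4 and week 12 of age, and each group had 3 libraries, numbered 1 to 3. The series title speaks of polycystic ovary syndrome, but the labels of these 6 libraries name diet alone as the treatment; no strain, diet composition or hormone treatment is given. Whether each library is a different mouse is not in the labels, so a p-value here reflects only how far libraries of one diet lie apart, and that spread could be technical.

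Autophagy encloses cytoplasm in a double membrane, the autophagosome, and delivers it to the lysosome for breakdown. The ULK1 kinase complex and a lipid kinase complex built on Beclin 1 start the process, ATG9 vesicles and the lipid-transfer protein ATG2 supply membrane, and a pair of ubiquitin-like conjugation reactions attach ATG8 proteins to that membrane, where cargo receptors bind them. Mitophagy is the removal of mitochondria by the same route, and cardiomyocytes, which are long-lived and rich in mitochondria, depend on it for the turnover of these organelles. Much of autophagy is set by phosphorylation, lipidation and protein breakdown, and mRNA levels do not measure how much cargo is degraded.

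Of the 6 libraries, HFD 1 had the lowest summed FPKM, 576334, and NC 1 the highest, 739406. HFD 1 was listed at 0 for 4 of the 11 mitochondrially encoded genes with a mean above 100 FPKM. The depth of each library is unknown because the values are not counts. The 8 cardiomyocyte markers were all present, with a summed level of 21941 to 25259 FPKM on NC and 17758 to 22025 FPKM on HFD, and the tissue label therefore met its markers. Atrial markers ranged from 347 to 13839 FPKM on NC and from 431 to 7082 FPKM on HFD, so the libraries of one diet differed widely in atrial marker RNA. Erythroid markers summed to 2025 to 8294 FPKM on NC and 1241 to 13371 FPKM on HFD, fibroblast markers to 336 to 611 and 260 to 526 FPKM, and endothelial markers to 358 to 382 and 361 to 545 FPKM. In heart pieces like these, fewer cells of a type and less RNA per cell cannot be told apart.

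No autophagy or mitophagy gene passed the test for a difference between the diets. With limma and Benjamini-Hochberg adjustment over 11456 genes, 0 of 35 members passed the threshold of 0.05, and even the lowest adjusted p among them rounded to 1. Over all genes the share called was 0%, with a smallest adjusted p of 0.281 by limma, so the count of 0 members matches the background. At an unadjusted p under 0.05, 0 members were higher on HFD, beside 1.32% of all genes, and 0 were lower, beside 2.3% of all genes. Fold changes of the members, here HFD minus NC on the log2(FPKM + 1) scale, ran from −0.47 for the cargo receptor gene Optn to 0.35 for the mitophagy gene Bnip3l. Their median was −0.02, as was the median over all tested genes, −0.02. In 29 of 35 members (82.9%) the fold change was under 0.25 in size, beside 71.9% of all genes tested. Fold changes were above 0 for 15 members and below 0 for 20, and 46.9% of all genes were above 0. This split depends on the scale. FPKM were also rescaled so that the sum over genes not encoded in mitochondria is the same in each library. On that scale 22 members were above 0 and 13 below, and 59.7% of all genes were above 0. The limma 95% intervals say what size of change these libraries leave room for. Their median width over the members was 1 on this log2 scale. For 34 of the 35 members the interval lay within a log2 change of 1, a doubling of FPKM + 1, in either direction. The exception was Optn, whose interval reached −1.01. For weakly expressed members the same interval leaves room for a larger change of FPKM itself.

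**Figure D1:**
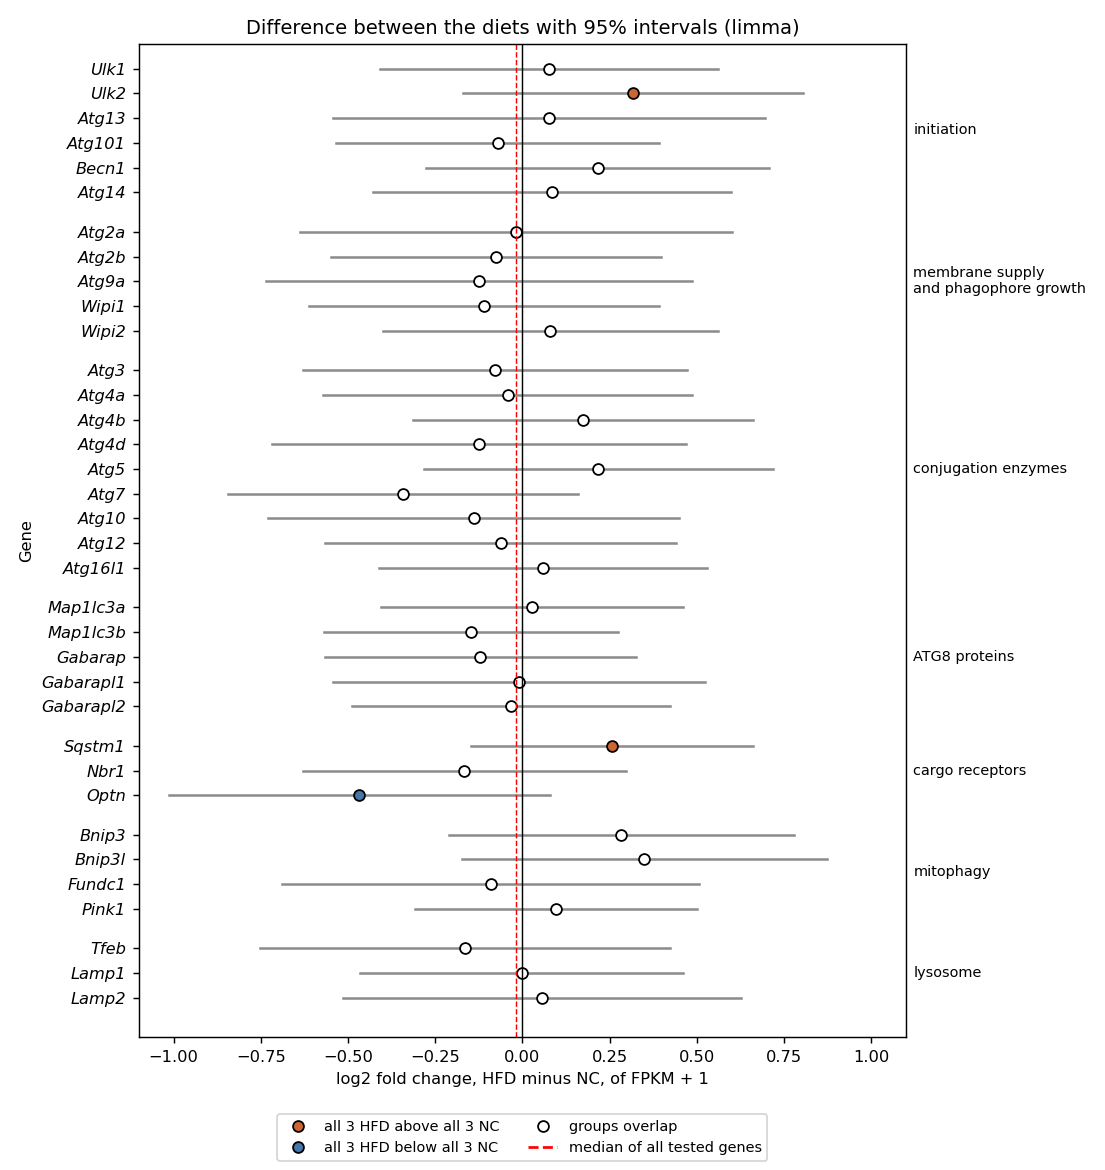
Log2 fold change of FPKM + 1, HFD minus NC, for the 35 tested members by role, with limma 95% intervals from 3 libraries of each diet; filled points are genes whose diet groups do not overlap. All intervals include 0, the points run from −0.47 (Optn) to 0.35 (Bnip3l), and the dashed line is the median of all 11456 tested genes, −0.02.

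For 3 of 35 members (8.57%) the HFD values lay all on one side of the NC values, beside 8.13% of all genes. Ulk2 and Sqstm1 had all 3 HFD values above all 3 NC values, which 3.25% of all genes did. Optn had all 3 HFD values below, which 4.88% of all genes did. These shares are near those of all genes. Leaving out a library cannot make separate groups overlap, so the number can only stay or grow. It stayed at 3 without NC 2 (8.57% of members, 15.7% of all genes) and was 9 without NC 1 (25.7% of members, 16.5% of all genes), 5 without NC 3 (14.3% and 15.2%), 7 without HFD 1 (20% and 17.5%), 6 without HFD 2 (17.1% and 18.6%) and 8 without HFD 3 (22.9% and 21.4%). Scaling mattered as well. On FPKM rescaled to nuclear genes Optn overlapped and Pink1 joined Ulk2 and Sqstm1, with 0 members lower. With median-ratio scaling, Ulk2 was higher and Gabarap lower, and with quantile normalization Pink1, Sqstm1 and Ulk2 were higher and Atg7 lower. Ulk2 was thus the 1 member that stood apart in each of the 3 scalings, and Optn in none of them.

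The members are well expressed in this tissue. Their median level was 10.8 FPKM, beside 5.73 FPKM for all tested genes, and 28 of 36 lay above that median. Over the 6 libraries 5 genes had a mean of at least 100 FPKM: Map1lc3a at 407, Pink1 at 192, Gabarap at 143, Lamp1 at 118 and Sqstm1 at 116 FPKM. Map1lc3a exceeded 98.6% of tested genes. At the other end, Atg4c, Atg2b, Atg14, Atg7, Atg2a and Atg5 had means under 5 FPKM. No member was listed at 0 in any library.

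**Figure D2:**
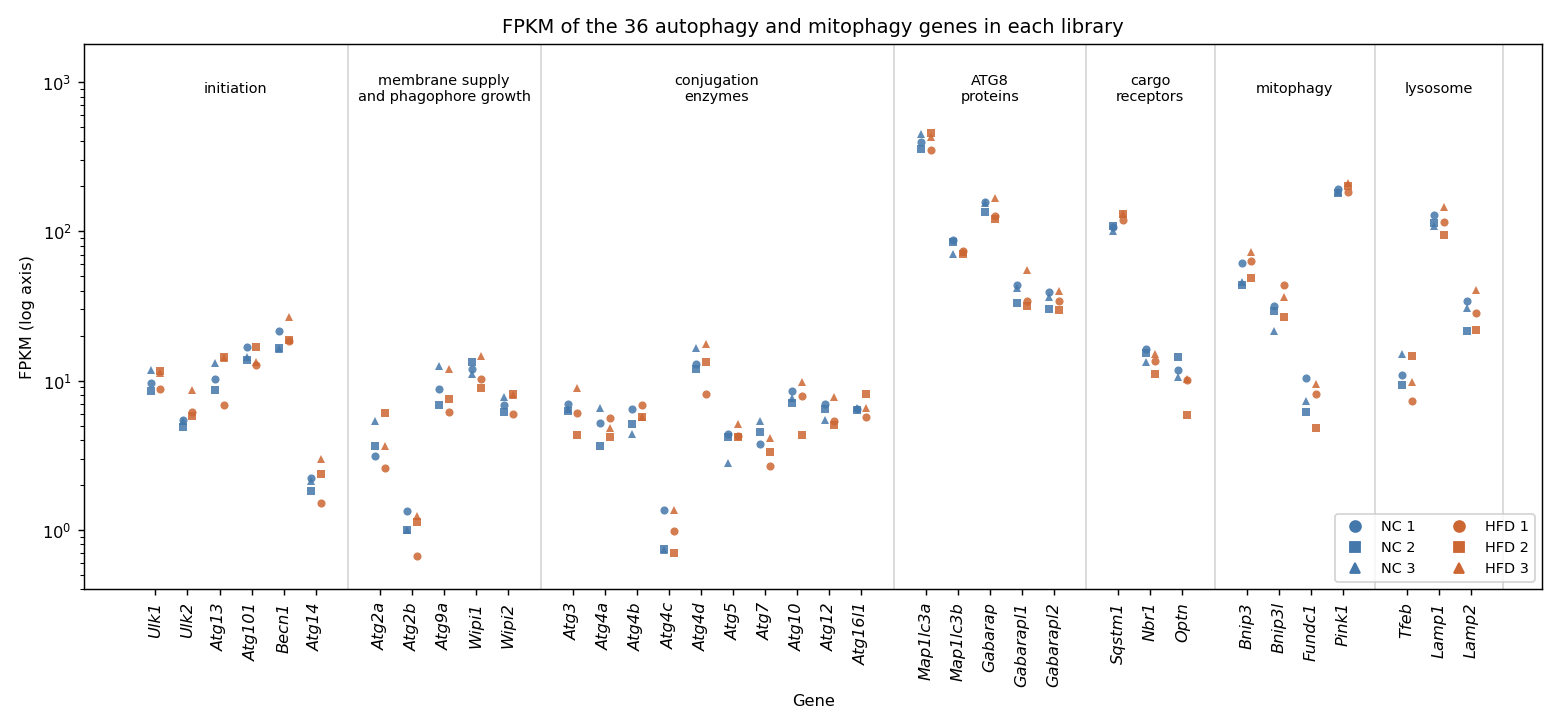
FPKM (log axis) of each of the 36 members in every library, by role; blue symbols are NC, orange symbols HFD, and circle, square and triangle are libraries 1, 2 and 3. Levels span from 1 FPKM for Atg4c and Atg2b to 407 FPKM for Map1lc3a, and the colours overlap for all but Ulk2, Sqstm1 and Optn.

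One member of the list, Tfeb, encodes a transcription factor that binds E-boxes with the core CACGTG in promoters of lysosomal and autophagy genes, and the promoters that hold this core are shown here so that each gene's value can be read with its sequence. RefSeq promoter windows of 300 bases, 250 before and 50 after the start, were matched for 31 of the 36 members, in 36 windows, on build GRCm38.p6. Becn1, Atg12, Atg16l1, Map1lc3a and Bnip3l had no window and were not searched. On either strand CACGTG was found in 6 member windows (16.7%), beside 7.15% of all 32851 windows. The longer core TCACGTG, the centre of the CLEAR element, was in 4 of them (11.1% against 3.77%), those of Atg14, Atg3, Atg7 and Lamp1. The stretches run 5′ to 3′ on the gene's strand from 20 bases before the first to 20 bases after the last match, with the core in capitals.
Atg14: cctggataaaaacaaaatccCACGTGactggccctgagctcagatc
Atg3: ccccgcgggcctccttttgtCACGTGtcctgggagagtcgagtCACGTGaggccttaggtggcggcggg
Atg5: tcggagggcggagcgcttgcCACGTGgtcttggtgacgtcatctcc
Atg7: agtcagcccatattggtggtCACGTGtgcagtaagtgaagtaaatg
Bnip3: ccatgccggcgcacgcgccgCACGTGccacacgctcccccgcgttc
Lamp1: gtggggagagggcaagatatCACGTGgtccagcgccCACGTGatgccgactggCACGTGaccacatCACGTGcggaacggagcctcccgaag
In Lamp1 (chr8:13159080-13159171, plus strand) 4 matches lie between 61 and 15 bases before the start, more than in any other member window. Atg3 (chr16:45158715-45158783, plus strand) has 2, at 94 and 71 bases before the start. A single match begins 1 base before the start in Atg14 (chr14:47568410-47568455, minus strand), and its core runs across the start. Single matches begin 14 bases before the start in Atg5 (chr10:44268305-44268350, plus strand), 132 bases before it in Atg7 (chr6:114670944-114670989, plus strand) and 108 bases before it in Bnip3 (chr7:138909589-138909634, minus strand). All these distances are those of the first base of the core. The starts of Atg14 and Atg7 used by RefSeq lie inside the longer gene spans of GENCODE, chr14:47540893-47570649 and chr6:114643097-114860614. Both matches therefore lie downstream of the GENCODE start of the gene.

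The genes with this core had fold changes of both signs, and the limma interval of each gene included 0. Whether these genes share a response to diet was not tested and cannot be judged from such values. Their log2 fold changes were 0.09 for Atg14, −0.08 for Atg3, 0.22 for Atg5, −0.34 for Atg7, 0.28 for Bnip3 and −0.0019 for Lamp1, 3 on each side of 0 with the values as deposited. Lamp1 changes side when FPKM are rescaled to nuclear genes (0.09), with median-ratio scaling (0.01) and with quantile normalization (0.12). The forkhead motif GTAAACA was in 0 member windows, beside 3.65% of all windows. The hypoxia core ACGTG, which is part of every CACGTG, was in 14 member windows (38.9%), beside 19.6% of all windows. A match is only a match of letters, and its absence from a window says nothing about a factor.

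Among the genes of initiation, 5 of 6 fold changes were above 0, with a median of 0.08, and none passed the test. Atg101, the only one below 0 (−0.07), moved to 0.01 on FPKM rescaled to nuclear genes. Without HFD 3, 3 of the 6 were above 0 and the median was −0.0017. Ulk2 encodes the paralog of the ULK1 kinase and lies at chr11:61775649-61855073 (mm10, minus strand). It was at 5.44, 4.92 and 5.36 FPKM in NC 1 to 3 and 6.16, 5.80 and 8.62 FPKM in HFD 1 to 3. The lowest HFD library exceeded the highest NC library by little, and most of the difference in means came with HFD 3. Means were 5.24 ± 0.281 and 6.86 ± 1.54 FPKM (SD, n = 3 each), giving a log2 fold change of 0.32 (SE 0.224, limma 95% interval −0.17 to 0.80). Without HFD 3 it was 0.16. Ulk1, the kinase that AMPK and mTORC1 regulate, was at 9.58, 8.52 and 11.8 FPKM in NC 1 to 3 and 8.73, 11.6 and 11.3 FPKM in HFD 1 to 3, with full overlap and a log2 fold change of 0.08 (SE 0.223). Its ratio to Ulk2 was 1.31 to 2.21 over the 6 libraries, so Ulk1 was the more abundant of the pair in each of them.

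Becn1, which encodes the scaffold of the lipid kinase complex, had the highest level of the initiation genes. It was at 21.5, 16.5 and 16.3 FPKM in NC 1 to 3 and 18.5, 18.8 and 26.5 FPKM in HFD 1 to 3. HFD 3 was the highest library, and NC 1 lay above the other HFD libraries. Its log2 fold change was 0.22 (SE 0.226), and 0.055 without HFD 3. Of its exon bases 43.9% overlap Cntd1 on the other strand, which was at 0 to 0.138 FPKM. Atg13 and Atg101, subunits of the ULK1 complex, had means of 10.7 and 15 FPKM with NC and 11.8 and 14.3 FPKM with HFD. Atg13 ran from 6.86 FPKM in HFD 1 to 14.4 FPKM in HFD 2. Atg14, which directs the Beclin 1 complex to the site of autophagosome formation, was at 2.06 ± 0.204 with NC and 2.30 ± 0.741 FPKM with HFD (SD, n = 3 each).

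Of the 5 genes of membrane supply and phagophore growth, 1 had a fold change above 0 and 4 below (median −0.08, none past the test), and Atg2a moved from −0.02 to 0.05 on FPKM rescaled to nuclear genes. Wipi1, which binds the phosphoinositide made by the Beclin 1 complex, was at 12.0, 13.3 and 11 FPKM in NC 1 to 3 and 10.3, 8.99 and 14.6 FPKM in HFD 1 to 3. The HFD libraries lay on both sides of the NC libraries. The log2 fold change was −0.11 (SE 0.23). Its paralog Wipi2, which recruits ATG16L1, was at 6.88, 6.12 and 7.76 FPKM in NC 1 to 3 and 5.99, 8.20 and 8.02 FPKM in HFD 1 to 3 (0.08), and the ratio of Wipi1 to Wipi2 was 1.1 to 2.17. The lipid-transfer pair Atg2a and Atg2b differed more in level, with means of 4.07 and 1.06 FPKM. Atg9a, the scramblase of the vesicles that seed the membrane, was at 9.38 ± 2.86 with NC and 8.59 ± 3.06 FPKM with HFD (SD, n = 3 each). Its exons overlap Ankzf1 on the other strand, at 6.28 to 14.0 FPKM, and Gm29253 on the same strand, at 0 to 0.139 FPKM. Together 32.6% of its exon bases overlap other genes, and 28.8% of the 75-base words of its sequence occur in other genes, Gm29253 among them. Since no source used here says whether strand was used in counting, part of the Atg9a value could belong to Ankzf1. How fragments shared with Gm29253 were counted is not known.

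Of the 10 conjugation genes 9 were tested, with 3 fold changes above 0, 6 below and a median of −0.06. On FPKM rescaled to nuclear genes, Atg4a (0.04) and Atg12 (0.01) moved above 0. Atg7, the E1-like enzyme that activates both ATG12 and the ATG8 proteins, had the smallest p of them. It was at 3.76, 4.54 and 5.36 FPKM in NC 1 to 3 and 2.70, 3.35 and 4.11 FPKM in HFD 1 to 3. The groups overlapped only because HFD 3 lay above NC 1. Means were 4.55 ± 0.802 and 3.39 ± 0.705 FPKM (SD, n = 3 each), giving a log2 fold change of −0.34 (SE 0.231, limma 95% interval −0.85 to 0.16), and the unadjusted p of limma was 0.163. Its range with single libraries left out was −0.46 to −0.23. The E2-like enzymes Atg3 and Atg10 were at −0.08 and −0.14, and for both HFD 2 was the lowest library and HFD 3 the highest.

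ATG5 is joined to ATG12, and with ATG16L1 the pair acts as the E3-like complex that directs ATG8 proteins to the membrane. Atg5 had a log2 fold change of 0.22, Atg12 of −0.06 and Atg16l1 of 0.06, with SE of 0.23, 0.231 and 0.216. The signs of Atg12 and Atg16l1 depend on the scale or the libraries. On FPKM rescaled to nuclear genes Atg12 was above 0, as were the others, and without HFD 2 Atg16l1 was at −0.061. Atg5 stayed above 0 in every alternative that tested it and was lowest without NC 3, at 0.058. Atg16l1 was almost the same in the NC libraries, 6.42, 6.35 and 6.55 FPKM, and ran from 5.75 to 8.15 FPKM on HFD.

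The 4 ATG4 proteases cut ATG8 proteins before they are joined to lipid and release them later. Atg4d was the most abundant of them, at 13.0, 11.9 and 16.6 FPKM in NC 1 to 3 and 8.16, 13.3 and 17.7 FPKM in HFD 1 to 3. The HFD group held both the lowest and the highest library, and the log2 fold change was −0.12 (SE 0.273). Atg4d made up 49.9 to 58.7% of the summed FPKM of the 4 genes on NC and 37.6 to 59.8% on HFD. That sum was 25.2 ± 3.48 with NC and 25.1 ± 4.08 FPKM with HFD (SD, n = 3 each), a smaller difference than the spread within a diet. Atg4a and Atg4b had log2 fold changes of −0.04 and 0.17. In sequence, 41.3% of the 75-base words of Atg4a also occur in its pseudogene Atg4a-ps, at 0.191 to 0.509 FPKM, and 19.3% of Atg4d exon bases overlap Kri1 on the other strand, at 4.51 to 9.96 FPKM.

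ATG8 proteins are the ubiquitin-like proteins that coat the autophagosome, and in mouse they fall into LC3 and GABARAP subfamilies. Their genes kept the same order of levels in all 6 libraries: Map1lc3a, Gabarap, Map1lc3b, Gabarapl1 and Gabarapl2. Map1lc3a was at 398, 359 and 451 FPKM in NC 1 to 3 and 353, 454 and 426 FPKM in HFD 1 to 3. Its groups overlapped fully, with means of 403 ± 46.3 and 411 ± 52.3 FPKM (SD, n = 3 each) and a log2 fold change of 0.03 (SE 0.199, limma 95% interval −0.41 to 0.46). Map1lc3b, whose protein is the usual marker of autophagosomes, was at 87.2, 85.2 and 70.1 FPKM in NC 1 to 3 and 74.4, 70.5 and 72.9 FPKM in HFD 1 to 3. NC 3 lay below all 3 HFD libraries and the other NC libraries above them, and the log2 fold change was −0.15 (SE 0.194). The FPKM of Map1lc3a thus exceeded that of Map1lc3b by 4.22 to 6.44 times in each library. GENCODE gives 1181 exon bases for Map1lc3a and 7517 for Map1lc3b. Because the lengths used for the FPKM are not given, this ratio does not settle which mRNA had more copies.

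Gabarap was at 149 ± 12.4 with NC and 138 ± 25.4 FPKM with HFD (SD, n = 3 each), and its fold change of −0.12 became 0.01 with quantile normalization. Gabarapl1 and Gabarapl2 were at −0.01 and −0.03 and moved above 0 on FPKM rescaled to nuclear genes (0.08 and 0.06) and with quantile normalization (0.07 and 0.03); with median-ratio scaling Gabarapl1 was at 0.004485. Of the exon bases of Gabarapl1 28.3% overlap 1700101I11Rik on the other strand, at 0.0463 to 0.568 FPKM. The neighbours Gabarapl1 and Gabarapl2 were the closest pair in the order, with ratios of 1.01 to 1.38. The 5 genes together summed to 726, 642 and 753 FPKM in NC 1 to 3 and 621, 706 and 761 FPKM in HFD 1 to 3. The lowest and the highest sums were both HFD libraries, and the means, 707 ± 57.8 and 696 ± 70.4 FPKM (SD, n = 3 each), differed by less than the spread within a diet. Map1lc3a supplied 54.8 to 59.9% of the sum on NC and 56.0 to 64.2% on HFD.

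**Figure D3:**
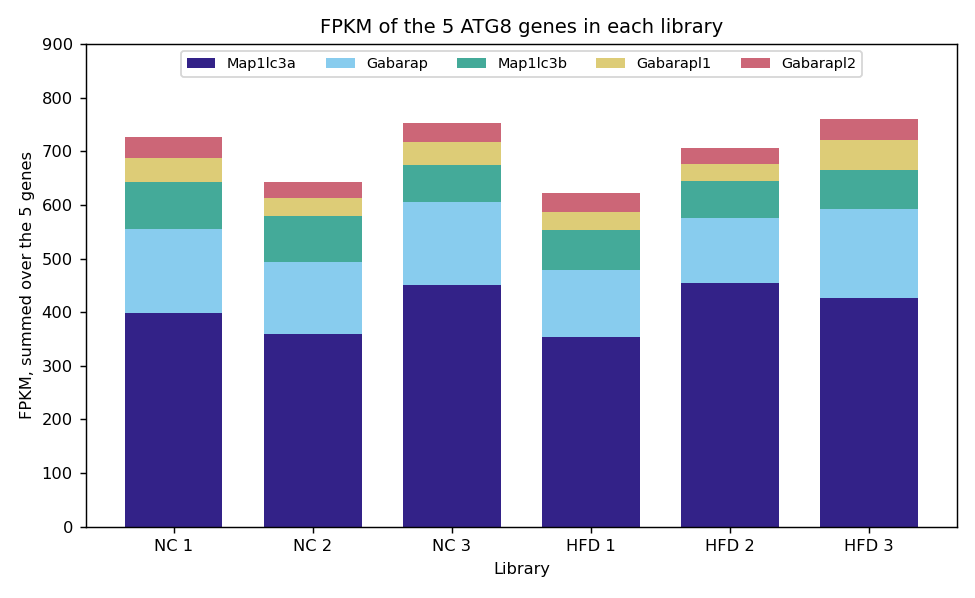
FPKM of the 5 ATG8 genes stacked for each library, with the library on the x axis and summed FPKM on the y axis. Sums run from 621 FPKM in HFD 1 to 761 FPKM in HFD 3, Map1lc3a makes up 54.8 to 64.2% of them, and the order of the genes is the same in all 6 libraries.

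Of the 3 cargo receptors 1 had a fold change above 0 and 2 below, none past the test, and 2 of the 3 members whose groups did not overlap are among them. Sqstm1 encodes p62, which links ubiquitinated cargo to ATG8 proteins and is itself degraded by autophagy. It lies at chr11:50199366-50210827 (mm10, minus strand) and was at 107, 109 and 99.9 FPKM in NC 1 to 3 and 119, 130 and 130 FPKM in HFD 1 to 3. Each HFD library exceeded each NC library. Means were 105 ± 4.82 and 126 ± 6.26 FPKM (SD, n = 3 each), giving a log2 fold change of 0.26 (SE 0.186, limma 95% interval −0.15 to 0.66) with an unadjusted p of 0.192 in the limma fit. The interval is wide beside the SDs because limma draws each gene's variance towards that of genes at a similar level. With single libraries left out the fold change was 0.22 to 0.30. Of its exon bases 17.3% overlap Mrnip on the other strand, at 0.232 to 1.06 FPKM.

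Optn encodes optineurin, a receptor for ubiquitinated cargo that acts with the kinase TBK1 in mitophagy, and lies at chr2:5020642-5064051 (mm10, minus strand). It was at 11.7, 14.5 and 10.6 FPKM in NC 1 to 3 and 10.1, 5.88 and 10.3 FPKM in HFD 1 to 3. All 3 HFD libraries lay below the NC libraries, but the gap between HFD 3 and NC 3 was small and HFD 2 stood well below the rest. Means were 12.3 ± 2.02 and 8.76 ± 2.50 FPKM (SD, n = 3 each), giving a log2 fold change of −0.47 (SE 0.251, limma 95% interval −1.01 to 0.08). This gene had the smallest unadjusted p of the members in the limma fit, 0.0865. Without HFD 2 the fold change was −0.23, and over all single libraries left out it was −0.59 to −0.23.

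Nbr1, a receptor that works with p62, was at 16.2, 15.3 and 13.3 FPKM in NC 1 to 3 and 13.5, 11.1 and 15.1 FPKM in HFD 1 to 3. The groups overlapped, and the log2 fold change was −0.17 (SE 0.212), or −0.056 without HFD 2. The balance of the receptors can be given as ratios within a library, in which a single scaling factor per library cancels. Sqstm1 over Nbr1 was 6.64, 7.14 and 7.51 on NC and 8.84, 11.7 and 8.59 on HFD. Sqstm1 over Optn was 9.15, 7.52 and 9.46 on NC and 11.8, 22.1 and 12.6 on HFD. Both ratios were higher in each HFD library than in each NC library, and the highest of both was in HFD 2. These pairs were formed after the values were seen and carry no test. Because Sqstm1 was higher and Optn lower in each HFD library than in each NC library, their ratio had to separate the diets. How often other gene pairs separate was not counted.

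**Figure D4:**
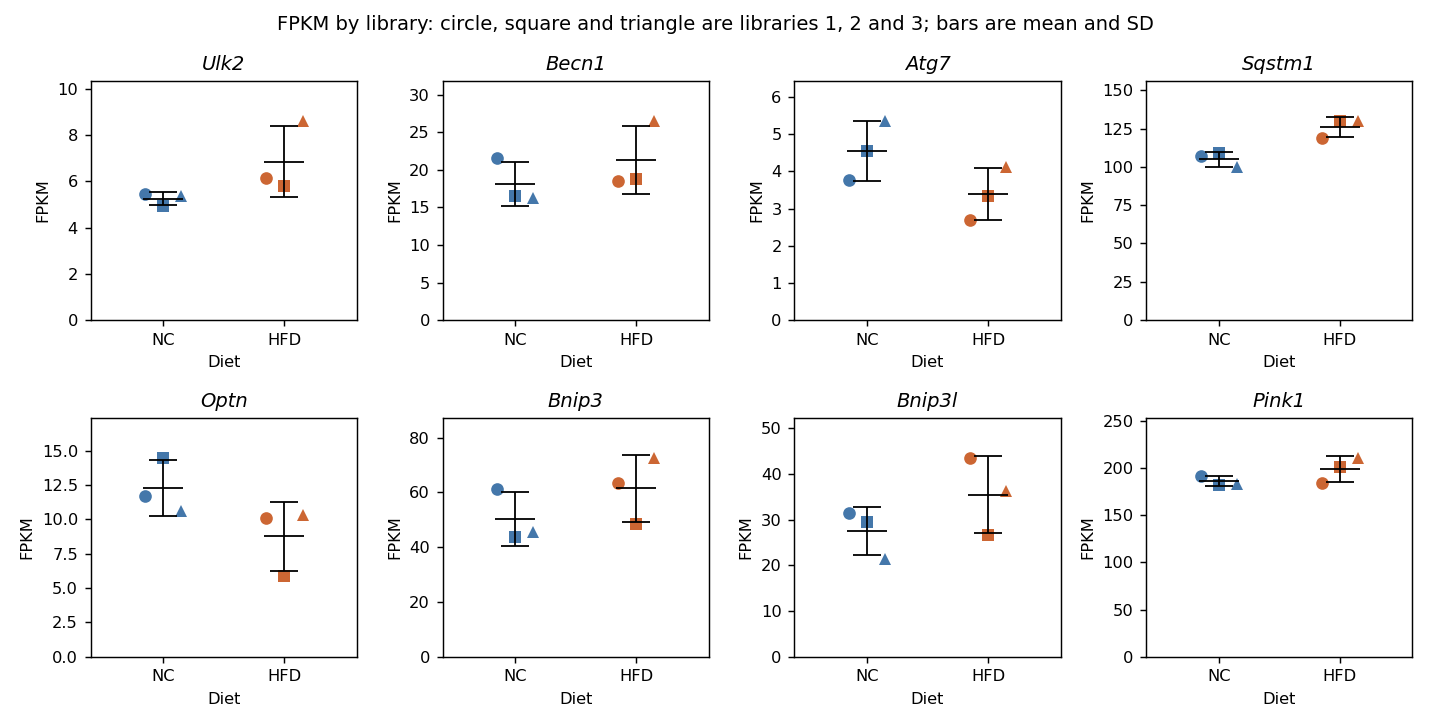
FPKM of 8 members in each library by diet, on axes that start at 0; symbols are libraries 1 to 3 and bars the mean and SD of 3 libraries. HFD points lie above the NC points for Ulk2 and Sqstm1 and below them for Optn, where HFD 2 is lowest at 5.88 FPKM; the diets overlap for Becn1, Atg7, Bnip3, Bnip3l and Pink1.

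Of the 4 mitophagy genes, 3 had fold changes above 0 in each scaling, with a median of 0.19, and none passed the test. Bnip3 and Bnip3l encode related receptors of the outer mitochondrial membrane that bind ATG8 proteins directly, and both are known targets of hypoxia signalling. Bnip3l, also called Nix, lies at chr14:66985239-67008877 (mm10, minus strand). It was at 31.4, 29.4 and 21.5 FPKM in NC 1 to 3 and 43.6, 26.7 and 36.2 FPKM in HFD 1 to 3. HFD 1 and HFD 3 lay above all NC libraries, and HFD 2 lay between NC 2 and NC 3. Means were 27.5 ± 5.23 and 35.5 ± 8.49 FPKM (SD, n = 3 each), giving a log2 fold change of 0.35 (SE 0.241, limma 95% interval −0.17 to 0.87), the largest of the members. With single libraries left out it was 0.19 (without NC 3 or HFD 1) to 0.54 (without HFD 2).

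Bnip3 lies at chr7:138890836-138909519 (mm10, minus strand) and was at 61.4, 43.8 and 45.6 FPKM in NC 1 to 3 and 63.4, 48.5 and 72.7 FPKM in HFD 1 to 3. NC 1 lay between the HFD libraries, and HFD 2 lay below NC 1. The log2 fold change was 0.28 (SE 0.227, limma 95% interval −0.21 to 0.78), and it was 0.15 (without HFD 3) to 0.44 (without HFD 2) with single libraries left out. Bnip3 was the more abundant of the pair in every library, with a ratio of 1.45 to 2.12. Of the exon bases of Bnip3 22.3% overlap Gm45507 on the other strand, not analysed here. Both genes share sequence with pseudogenes: 16.9% of the 75-base words of Bnip3l occur in Bnip3l-ps, at 0.203 to 0.931 FPKM, and 11.4% of those of Bnip3 in pseudogenes such as Gm16439, at 0 to 0.106 FPKM. The levels of the pseudogenes are small beside those of the genes. Hif1a, from the list of regulators, encodes a hypoxia factor and was at 6.80, 6.47 and 5.51 FPKM in NC 1 to 3 and 8.92, 6.95 and 9.98 FPKM in HFD 1 to 3, without overlap and with a log2 fold change of 0.40 (SE 0.222), and in the limma fit its unadjusted p was 0.0987.

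Pink1 encodes the kinase that accumulates on damaged mitochondria and marks them for removal. It was at 192, 182 and 183 FPKM in NC 1 to 3 and 184, 201 and 211 FPKM in HFD 1 to 3. NC 1 exceeded HFD 1, and the other HFD libraries lay above all NC libraries. Means were 186 ± 5.16 and 199 ± 13.6 FPKM (SD, n = 3 each), giving a log2 fold change of 0.10 (SE 0.185). Fundc1, a receptor of the outer mitochondrial membrane, was at 7.94 ± 2.19 and 7.48 ± 2.39 FPKM (SD, n = 3 each), and it had the lowest level of the 4 genes.

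The lysosomal genes had fold changes near 0, with 1 of 3 above 0, or 2 with any of the scalings between libraries, and none past the test. Tfeb was at 10.9, 9.38 and 15 FPKM in NC 1 to 3 and 7.36, 14.6 and 9.78 FPKM in HFD 1 to 3. The groups overlapped fully, and the log2 fold change was −0.17 (SE 0.27). Lamp1 and Lamp2 encode the main glycoproteins of the lysosomal membrane, and loss of LAMP2 causes a cardiomyopathy with stored autophagic material (Danon disease). Lamp1 was at 128, 113 and 109 FPKM in NC 1 to 3 and 115, 95.1 and 145 FPKM in HFD 1 to 3. HFD 2 was the lowest library and HFD 3 the highest, and the log2 fold change was −0.0019 (SE 0.213, limma 95% interval −0.46 to 0.46). Lamp2 was at 34.1, 21.4 and 30.8 FPKM in NC 1 to 3 and 28.6, 21.9 and 40.2 FPKM in HFD 1 to 3, again with HFD 3 highest and a log2 fold change of 0.06 (SE 0.262). Lamp1 over Lamp2 was 3.55 to 5.29. Of the exon bases of Lamp1 9.31% overlap Grtp1 on the other strand, at 1.04 to 1.94 FPKM.

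Macrophages are rich in lysosomes, and their 8 markers, all present, summed to 314, 212 and 292 FPKM in NC 1 to 3 and 156, 192 and 201 FPKM in HFD 1 to 3. Their sum was lower in each HFD library than in each NC library. The part of these cells in the values of lysosomal genes was not tested.

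A wider list of 105 pathway genes was read from the same fit. Of 102 that were tested, 0 passed an adjusted p of 0.05 with limma and 0 had an unadjusted p under 0.05; 53 fold changes were above 0 and 49 below, with a median of 0.02. These counts follow the scale, as for the members: 76 of 102 were above 0 on FPKM rescaled to nuclear genes and 34 without HFD 3. The groups did not overlap for 5 higher genes, Uvrag, Lipa, Fnip1, Bcl2l1 and Hif1a, and 1 lower gene, Cd63, of 102; over all genes the shares were 3.25% and 4.88%. Of the other initiation genes 4 of 8 were above 0, or 6 on FPKM rescaled to nuclear genes. Uvrag, a Beclin 1 partner, was at a mean of 4.10 ± 0.501 with NC and 5.55 ± 0.998 FPKM with HFD (SD, n = 3 each), which is a log2 fold change of 0.35, and Nrbf2, another subunit of the lipid kinase complex, had a log2 fold change of −0.21. Of 4 tested genes of phagophore growth 1 was above 0, or 2 when rescaled, and the membrane protein genes Tmem41b and Vmp1 were at −0.34 and −0.27, but at −0.041 and −0.023 without HFD 2. Of the other receptors 5 of 7 were above 0, or all 7 when rescaled, among them Retreg1, a receptor for endoplasmic reticulum, at a mean of 20.2 ± 2.63 with NC and 27.9 ± 7.72 FPKM with HFD (SD, n = 3 each), which is a log2 fold change of 0.42, and Tollip at 0.23 (0.046 without HFD 3). The other mitophagy genes split 5 and 5, or 7 and 3 when rescaled, with Phb2, a receptor of the inner mitochondrial membrane, at 0.14.

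Of 12 genes of fusion with the lysosome, 7 were above 0, or 9 when rescaled, with the SNARE gene Stx17 at 0.30 (0.14 without NC 3) and the adaptor gene Plekhm1 at 0.16. Among 20 genes of lysosomal hydrolases and membrane proteins, 8 were above 0 and 12 below, while 14 were above 0 when rescaled to nuclear genes and 3 without HFD 3. Lipa and Cd63 had groups that did not overlap, in opposite directions. Lipa, the lysosomal acid lipase that breaks down cholesteryl esters and triglycerides, was at 5.32, 3.84 and 5.16 FPKM in NC 1 to 3 and 6.90, 6.16 and 7.09 FPKM in HFD 1 to 3. Every HFD value exceeded every NC value, and the log2 fold change was 0.43 (SE 0.218, limma unadjusted p 0.0742). Cd63, a tetraspanin of late endosomes and lysosomes, was at 116, 94.1 and 112 FPKM in NC 1 to 3 and 77.4, 82.2 and 84.9 FPKM in HFD 1 to 3. Here every HFD value lay below every NC value, and the log2 fold change was −0.39 (SE 0.193, limma unadjusted p 0.067). The summed FPKM of the macrophage markers given above was lower on HFD in the same libraries. The part of macrophages in the Cd63 values was not tested.

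The proton pump that acidifies the lysosome had 3 of 15 genes above 0 and a median of −0.07, but 8 above 0 and a median of 0.02 on FPKM rescaled to nuclear genes; Atp6v0c and Atp6v1f were at −0.24 and −0.23. Regulators of autophagy had 20 of 26 above 0 and a median of 0.12, with 21 to 23 above 0 in the 3 scalings but 13 of 26 and a median of 0.0094 without HFD 3. Sesn1, a sestrin that restrains mTORC1, was at 13.5 ± 3.01 and 20 ± 6.93 FPKM (SD, n = 3 each), with a log2 fold change of 0.51, which was 0.26 without HFD 3. HFD 3 was the highest library for 20 of these 26 genes.

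HFD 3 was also the highest library for many members. It held the highest value for 17 of 35 members (48.6%) and the lowest for 0. Of all tested genes 34.5% were highest there, and 607 of 11456 were lowest there. The median deviation of the members from their mean over the 6 libraries was 0.23 (log2) in HFD 3, beside 0.17 for all genes. HFD 1 was lowest for 12 of 35 members, beside 3786 of all 11456 tested genes. HFD 2 was lowest for 11 members, beside 2645 of all tested genes. In HFD 2 the members had a median deviation of −0.12, beside −0.03 for all genes. The member medians of the HFD libraries thus covered a wider range than the median fold change between the diets, −0.02: without HFD 3 the median fold change of the members was −0.14 (all genes −0.11), and without HFD 1 it was 0.07 (all genes 0.05). Structural RNAs summed to 180 to 900 FPKM on NC and 184, 830 and 1705 FPKM in HFD 1 to 3, and HFD 3 was highest for them as well; their part in the values of the members was not tested.

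**Figure D5:**
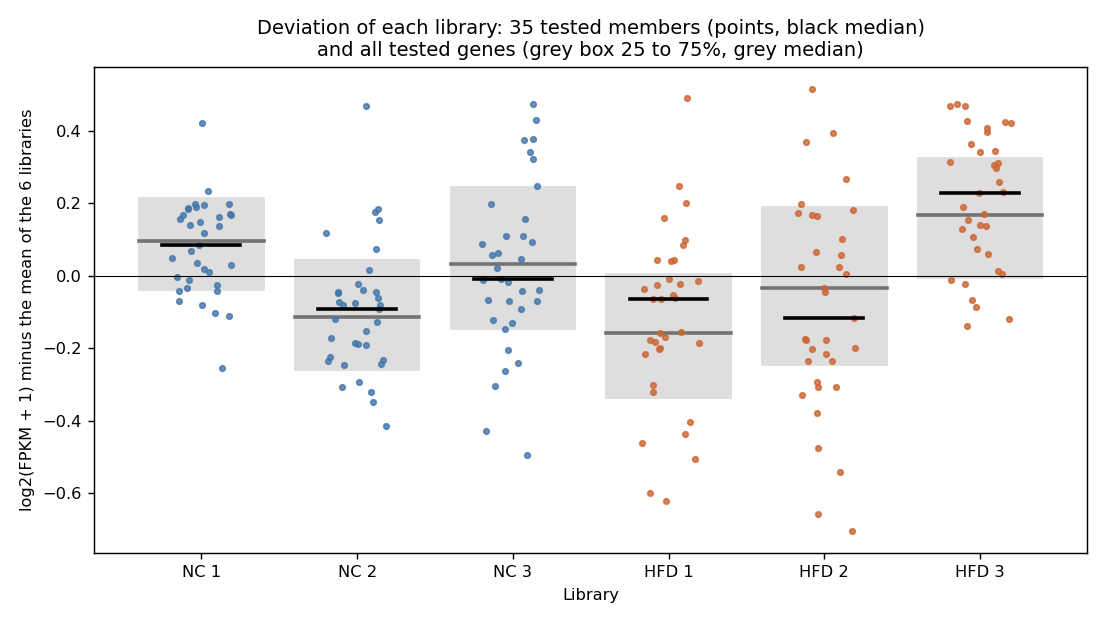
Deviation of each library from the mean of the 6 libraries on the log2(FPKM + 1) scale, for the 35 tested members (points, black line their median) and for all tested genes (grey box from the 25th to the 75th percentile, grey line the median). HFD 3 has the highest member median, 0.23, and HFD 2 the lowest, −0.12, so the libraries of one diet lie on both sides of 0.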

How the data were processed

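The authors deposited 1 table of FPKM values per gene and library. The submitters' processing notes name the build mm10, HISAT2 2.2.1, Trimmomatic 0.38, DESeq2 1.18.1, FastQC 0.11.9, HTSeq 0.13.5 and R 3.4.1, with no role stated. How the authors computed the FPKM, how deeply they sequenced and whether strand was used are points not given in the sources used here. Per the labels' protocols, Trizol was used for the RNA and a VAHTS mRNA-seq kit for the libraries. Steps of 1 read were looked for in genes under 0.3 FPKM, but only 2.5 to 5.32% of their ratios to NC 1 lay within 0.02 (log2) of the commonest one; no counts were recovered, and no counting interval is given.

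Symbols were matched for 23718 of 23808 gene identifiers, and 90 had none. Values were analysed as log2(FPKM + 1), which makes changes of weakly expressed genes look smaller, for genes whose mean reached 1 FPKM. The diets (3 libraries each) were set against each other with limma 3.58.1 under R 4.3.3 (eBayes with trend, two-sided, Benjamini-Hochberg over 11456 genes, threshold 0.05, no covariate), after the fit had been tested on simulated data. Members were read from that fit, and lists are described by counts and medians without a test. The members and lists were chosen with earlier results of these data known. Full values are given for members whose groups do not overlap or with an unadjusted p under 0.05, for the highest level and the smallest p of each role and for paralog pairs; of pathway lists, the 2 genes with the smallest p are named, except 1 gene that is not reported here, and others were named after their values were seen. Positions, exon overlaps and shared 75-base words come from GENCODE annotation of mm10, and promoter windows from RefSeq. Alternatives were 2 pseudocounts, 2 filters, 3 scalings, eBayes settings, weights per library, a replicate block, 2 covariates and each library left out. Figures used matplotlib 3.10.9 and pandas 2.3.3 in Python 3.11.15.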

Additional observations from a re-analysis of the deposited data

How the results depend on the processing

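With 3 libraries a diet and unknown depth, these data limit single members to intervals of about 1 log2 unit. No member passed the adjusted threshold in any of 19 alternatives, and at an unadjusted p under 0.05 there was 1 with quantile normalization, with the structural RNA covariate and without HFD 2, and 0 otherwise. Over all genes, 73 passed with the replicate number as a block, 8 with structural RNA and 1 with the atrial markers as a covariate, and 0 to 1 with a library left out (1 without NC 2). The labels do not say whether equal numbers pair the libraries. The same-number correlations of deviations were 0.193, 0.0864 and 0.275. For NC 1 and NC 3 the same number was the best match, while NC 2 correlated best with HFD 1 (0.251). Seen from the HFD libraries, the same number was the best match for HFD 3 alone. HFD 1 correlated best with NC 2, and HFD 2 with NC 3 (0.0927). With 3 libraries a diet, these correlations cannot decide whether the libraries are paired. The number of members whose groups do not overlap was 3 to 9 with a library left out. Direction was kept in every alternative that tested the gene by 12 of 35 members: Ulk2, Becn1, Atg4b, Atg5, Atg7, Map1lc3b, Sqstm1, Nbr1, Optn, Bnip3, Bnip3l and Pink1. The log2 fold changes that reversed were, on FPKM rescaled to nuclear genes, Atg101 0.014, Atg2a 0.052, Atg4a 0.039, Atg12 0.014, Gabarapl1 0.079, Gabarapl2 0.057 and Lamp1 0.088. With median-ratio scaling they were Gabarapl1 0.004485 and Lamp1 0.012, and with quantile normalization Gabarap 0.0052, Gabarapl1 0.066, Gabarapl2 0.0302 and Lamp1 0.12. With the atrial covariate they were Atg4a 0.0059, Gabarapl1 0.056, Gabarapl2 0.0062 and Lamp1 0.027. With the structural RNA covariate they were Ulk1 −0.065, Atg13 −0.22, Atg14 −0.071, Wipi2 −0.046, Map1lc3a −0.084 and Lamp2 −0.0602. With each library left out, the range crossed 0 for Atg10 (−0.36 to 0.15), Atg101 (−0.19 to 0.0103), Atg12 (−0.23 to 0.039), Atg13 (−0.0896 to 0.39), Atg14 (−0.066 to 0.27), Atg16l1 (−0.061 to 0.16), Atg2a (−0.28 to 0.21), Atg2b (−0.16 to 0.055), Atg3 (−0.31 to 0.14), Atg4a (−0.23 to 0.12), Atg4d (−0.36 to 0.16), Atg9a (−0.37 to 0.081), Fundc1 (−0.27 to 0.16), Gabarapl1 (−0.25 to 0.14), Gabarapl2 (−0.14 to 0.067), Lamp1 (−0.16 to 0.14), Lamp2 (−0.16 to 0.26), Map1lc3a (−0.052 to 0.13), Tfeb (−0.40 to 0.046), Ulk1 (−0.0201 to 0.20) and Wipi1 (−0.30 to 0.025). The cause of these reversals was not tested. In those fits limma shared the spread of both diets.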
